A study of Mus musculus with 17 samples.

Results

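UO126, an inhibitor of the kinases MEK1 and MEK2, was applied to quiescent NIH 3T3 cells and to the same cells under platelet-derived growth factor (PDGF), and its effect on transcripts was read from 4 of the 17 arrays of the study. The arrays were chosen by their treatment, with earlier results of these data known. They are UO126 at 10 µM, its vehicle control, PDGF with UO126 at 10 µM, and PDGF alone. All are from the Src experiment and its table of 8 arrays. PDGF was given at 25 ng/ml for 1 h. The other 4 arrays of that table hold SU6656 at 2 µM, an inhibitor of Src family kinases, and LY294002 at 7.5 µM, an inhibitor of PI3K, each without and with PDGF. The study asked which genes that PDGF induces depend on Src kinases, MEK or PI3K. A separate MEK experiment on another array design also holds UO126 at 10 µM, an untreated control, PDGF with UO126 and PDGF alone, with the time of PDGF not given in the sources used here. Every condition is 1 array of bulk RNA from 1 line, and the labels do not state whether the cultures behind the arrays were separate. The p-values therefore cover the spread between arrays alone, and that spread may be technical.

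PDGF binds receptor tyrosine kinases of fibroblasts, which activate Ras and then the kinases Raf, MEK and ERK in turn. ERK phosphorylates transcription factors such as the ETS-domain partners of serum response factor, and genes of the early response (Fos and Egr families, growth factor ligands) are transcribed within minutes to hours. Among them are genes whose products switch the pathway off again, such as the Dusp phosphatases and the Sprouty proteins. UO126 binds MEK and keeps it from activating ERK, so it is used to ask which of these transcripts need the pathway.

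The arrays are oligonucleotide arrays on which a probe set reports a transcript as a linear signal. NIH 3T3 cells are fibroblasts of a line made from mouse embryos, and 7 fibroblast markers, among them Col1a1, Col1a2, Fn1 and Vim, lay between 20940 and 45036 signal units on all 8 arrays, while Lum lay between 9.1 and 85.5. The 10 fibroblast markers summed to 195400 to 210420 on the 4 arrays used here. Some markers of other cell types were near the floor, with Epcam at 4.5 to 20.2, Cdh1 at 25.4 to 65.1 and Pecam1 at 17.2 to 56.3. Ptprc lay at 2.4 to 32.8 and Adipoq at 2.9 to 16.1. Others were brighter, with Krt8 at 81.6 to 322.3, Kdr at 149.7 to 220.9, Des at 171.3 to 346 and Adgre1 at 100.7 to 213.4. The sums of the epithelial, endothelial, macrophage and muscle or adipocyte lists stayed between 346.7 and 793.7, and Csf1r was the brightest of them at 314.3 to 454.7. Array medians were 174.7 to 198.4 and Spearman's correlation between arrays was 0.945 to 0.962. The 3′ to 5′ signal ratio was 0.739 to 0.787 for Gapdh and 1.17 to 1.40 for actin. The quiescent UO126 array had the highest median and the lowest Gapdh ratio, and the array of PDGF with UO126 had the lowest median. Whether an array stood apart was not tested.

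With UO126, over the quiescent pair and the PDGF pair in 1 fit, Arf2 and Emp1 fell and Prkrip1, H1f2 and Neat1 rose. These genes hold all 7 probe sets of 15838 (0.0442%) that passed an adjusted p of 0.05 in limma, 3 of them higher (0.0189%) and 4 lower (0.0253%), where 1439 had an unadjusted p under 0.05. The fit compared 2 UO126 arrays with the 2 matched arrays without inhibitor and took its error from all 8 arrays of the table. That error is no spread of replicates: with 3 residual degrees of freedom it also holds any unequal response to PDGF. In bulk RNA, fewer cells of a kind and less RNA per cell cannot be told apart.

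Arf2 encodes a small GTPase of the ADP-ribosylation factor family, which acts in membrane traffic. Its brightest probe set gave 507.1 with UO126 and 1647.9 with vehicle in quiescent cells, and 988.4 with UO126 and 2484.8 without it under PDGF. Both UO126 arrays lay below both arrays without inhibitor, and below the 4 arrays with SU6656 or LY294002, which spanned 1738.8 to 2860.6. The log2 change was -1.48 (SE 0.148, adjusted p = 0.027 in limma), and 2 further probe sets gave -1.68 and -1.11 (adjusted p = 0.032 and 0.037 in limma). The 4th Arf2 probe set gave -1.78 with an adjusted p of 0.051 in limma. Emp1, which encodes an epithelial membrane protein of the tetraspan family, gave 1265.3 with UO126 and 3235.6 with vehicle, and under PDGF 2488.6 with UO126 and 5363.6 without it. Its log2 change was -1.22 (SE 0.126, adjusted p = 0.027 in limma). Emp1 was lowest on the quiescent UO126 array, and its signal with PDGF and UO126 lay below that of the vehicle array.

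H1f2, a linker histone gene, gave 8058 with UO126 and 4782.1 with vehicle, and under PDGF 10323 with UO126 and 6472.5 without it. Its log2 rise was 0.67 (SE 0.0785, adjusted p = 0.037 in limma), while 2 dimmer H1f2 probe sets gave 0.58 and -0.21 (adjusted p = 0.31 and 0.89 in limma). Neat1, the long noncoding RNA that scaffolds nuclear paraspeckles, gave 12809 against 8361.6, and under PDGF 14073 against 9414.1, a log2 rise of 0.52 (SE 0.0643, adjusted p = 0.037 in limma). Prkrip1, whose product binds the RNA-dependent kinase PKR, was dim, with 360.3 on the UO126 array and 64.4 on the vehicle array, and under PDGF 254.3 against 38.8. The log2 rise was 1.98 (SE 0.247, adjusted p = 0.037 in limma).

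The 5 genes were then set beside the other inhibitors of the table. All 6 inhibitor arrays lay above both arrays without inhibitor for Prkrip1 (186.1 to 360.3) and Neat1 (11267 to 16212). H1f2 reached 12255 and 14125 with LY294002. UO126 minus the mean of SU6656 and LY294002, a contrast that uses no array without inhibitor, was 0.31 for Prkrip1, 0.05 for H1f2 and -0.02 for Neat1 (adjusted p = 0.61, 0.81 and 0.91 in limma). For Arf2 it was -1.55 at the brightest probe set and for Emp1 -0.99 (adjusted p = 0.0034 and 0.0083 in limma). SU6656 gave -0.71 for Emp1 against the same arrays without inhibitor (adjusted p = 0.14 in limma). The panel of signals by inhibitor shows this for each gene.

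**Figure D1:**
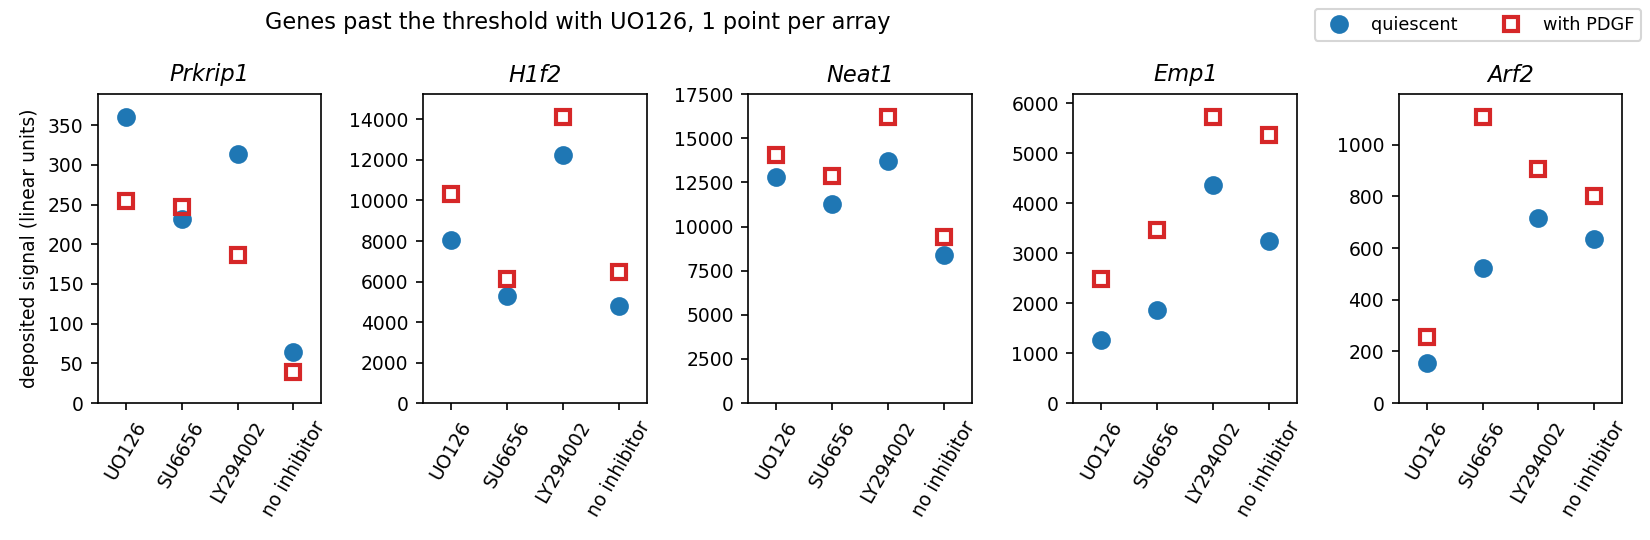
Deposited signal (linear units, y axis from 0) of the 5 genes past the threshold with UO126, 1 point per array, with the inhibitor on the x axis and PDGF shown by the marker; Arf2 is shown at the probe set with the largest change among those past the threshold. The UO126 points of Arf2 (154.8 and 254.4) are the lowest of 8 arrays, while the points of Prkrip1 and Neat1 are low on the 2 arrays without inhibitor alone.

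The calls rest on few arrays. Without the vehicle array, or without the array of PDGF alone, the fit called 0 probe sets, and without the quiescent UO126 array it called 2, none of them among the 7. The rises of Prkrip1, H1f2 and Neat1 were no longer called without either LY294002 array or without the array of PDGF with UO126, where 5, 5 and 8 probe sets passed, all lower. With the dim probe sets kept in, or without a variance trend in limma, it also called 0, and without that trend the other tests described here called 0 as well. The directions of all 5 genes stayed as given under every one of the 18 alternative settings. The 5 genes were picked from these same data, so this is no independent support.

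Mcl1 came close to the threshold. It encodes an antiapoptotic member of the BCL2 family and is measured by 6 probe sets, all of them lower with UO126 in both states. At the probe set with the smallest p the signal was 1218.5 with UO126 and 2003.2 with vehicle, and under PDGF 2434.7 with UO126 and 4101.6 without it. The log2 change was -0.71 (adjusted p = 0.088 in limma), and over the 6 probe sets the plain differences were -0.32 to -1.55 in quiescent cells and -0.49 to -0.86 under PDGF. Oga, the enzyme that removes O-linked N-acetylglucosamine from proteins, had -0.77 at its probe set with the smallest p (adjusted p = 0.072 in limma). Its signals there were 842.3 against 1478 in quiescent cells and 812.8 against 1409 under PDGF. The brightest Oga probe set gave -0.27, and the others -0.63, -0.44 and 0.04 (adjusted p = 0.28 to 0.99 in limma). Rgs2, which speeds up GTP hydrolysis by G protein alpha subunits, had 1.14 (adjusted p = 0.11 in limma), with 3732 against 2332 and, under PDGF, 2063.4 against 657.3. These genes were chosen after their values were seen.

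Across all probe sets, the change with UO126 in quiescent cells and the change under PDGF had little in common. In quiescent cells 200 probe sets (1.26%) were at least 2-fold higher with UO126 and 298 (1.88%) at least 2-fold lower. Under PDGF the numbers were 222 (1.4%) and 286 (1.81%). Both lists of higher probe sets shared 15, which is 7.5% of the quiescent list and 6.76% of the PDGF list, and both lists of lower probe sets shared 41, which is 13.8% and 14.3%. Of the 200 higher in quiescent cells, 19 were at least 2-fold lower under PDGF. Of the 298 lower in quiescent cells, 14 were at least 2-fold higher under PDGF. Pearson's r between the changes over the 15838 probe sets was 0.079 and Spearman's correlation 0.099, as a description of 2 pairs of single arrays that share no array. Most of these probe sets were dim: the median mean signal of the 4 lists was 104 to 129. Among the 7918 probe sets above the median of mean signals, 364.9 units, 8 (0.101%) were higher and 32 (0.404%) lower in quiescent cells, 19 (0.24%) higher and 30 (0.379%) lower under PDGF, and r was 0.22.

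**Figure D2:**
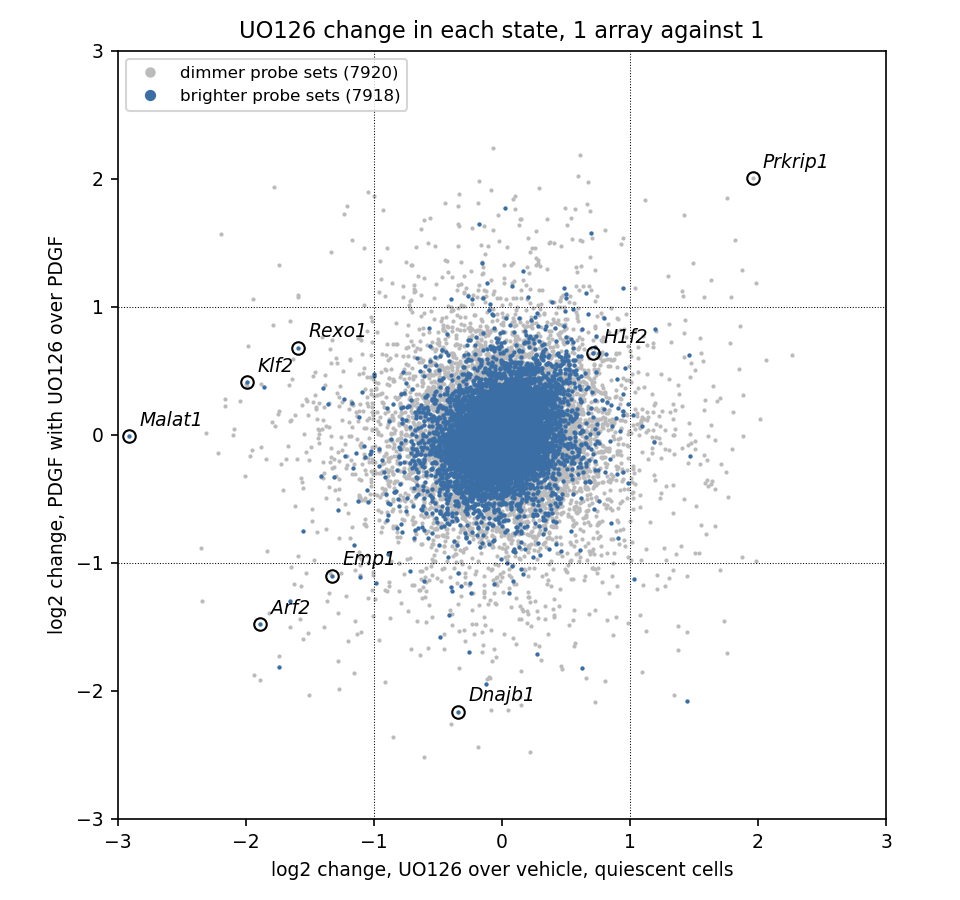
Log2 change with UO126 in quiescent cells (x axis) and under PDGF (y axis), 1 point per probe set, with those above the median signal in blue and dotted lines at 2-fold. Arf2, Emp1, H1f2 and Prkrip1 lie along the diagonal, Klf2, Malat1 and Rexo1 are low on the quiescent axis, and Dnajb1 lies at -2.16 on the PDGF axis.

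Klf2, Rexo1 and 1 of 5 Malat1 probe sets had a change with UO126 that differed between the states. They were the 3 probe sets of 15838 (0.0189%) past the threshold for the interaction of UO126 with PDGF, all lower with UO126 in quiescent cells, and 1222 probe sets had an unadjusted p under 0.05. This fit has 2 residual degrees of freedom, and each state holds 1 UO126 array, which it meets exactly. Its spread comes from the other 6 arrays, so a single UO126 array is assumed to vary like those. Klf2, a Krüppel-like transcription factor, gave 453.5 with UO126 and 1870.1 with vehicle in quiescent cells, and 2419.6 with UO126 and 1789.5 without it under PDGF. The quiescent UO126 array was the lowest of all 8 arrays, and the other 7 lay between 1789.5 and 4266.2. The change under PDGF minus that in quiescent cells was 2.42 (SE 0.21, adjusted p = 0.014 in limma).

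In the MEK experiment the quiescent UO126 array was again the lowest of 4 for Klf2. The signals there were 16.6 with UO126 and 249.6 in untreated quiescent cells, and under PDGF 303.9 with UO126 and 274.5 without it. The plain log2 differences were -2.90 and 0.19, beside -1.99 and 0.41 in the Src experiment. The signal of 16.6 lay below the offset of 21.2 that was added before the logarithm in the MEK experiment.

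Malat1 is an abundant nuclear noncoding RNA with 5 probe sets. The probe set that passed gave 3291.5 with UO126 and 24009 with vehicle, and under PDGF 26978 with UO126 and 24040 without it, an interaction of 2.84 (SE 0.135, adjusted p = 0.00019 in limma). The other 4 Malat1 probe sets gave interactions of -0.64 to 0.34 and quiescent changes of -0.57 to 0.12, so the low value belongs to 1 probe set on 1 array. Whether it reflects the transcript or that array was not tested. Rexo1, which encodes a protein of the RNA exonuclease family, passed at 1 probe set, with 146.4 against 487.5 in quiescent cells and 726.8 against 438.6 under PDGF (interaction 2.35, SE 0.241, adjusted p = 0.035 in limma). In the MEK experiment Rexo1 had plain differences of -0.19 and -0.52. Leaving out the SU6656 array or the PDGF with SU6656 array took the number of interaction calls to 9 and 7.

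The same fit gave the UO126 change within each state, with the UO126 side again 1 array whose spread is borrowed from the other conditions. In quiescent cells 10 probe sets (0.0631%) passed, all of them lower with UO126, and 1378 had an unadjusted p under 0.05. Beside Malat1, Klf2, Rexo1, Arf2 and Emp1 they were both probe sets of Klf4, and 1 probe set each of Mcl1, Rhob and Dhrs7b. The fitted quiescent change of Mcl1 was -1.62 at that probe set and -0.38 to -1.19 at its others, which did not pass. Klf4, another Krüppel-like factor, gave 1488.1 with UO126 and 3487.7 with vehicle at its brighter probe set, and 5031.7 against 5537.9 under PDGF. Its fitted quiescent change was -1.22 (adjusted p = 0.037 in limma). Rhob, an early-response small GTPase gene, gave 5078.5 against 8784.2, and under PDGF 9248.4 against 10587, with a fitted quiescent change of -0.81 (adjusted p = 0.015 in limma). The MEK experiment had quiescent differences of -0.56 for Klf4, -0.66 for Rhob and -0.62 for Mcl1. Dhrs7b, a short-chain dehydrogenase gene, was dim, with 77.3 against 353.8 and a fitted quiescent change of -1.86. Its other probe set gave 75.1 against 88.8 and a fitted quiescent change of -0.14. In the MEK experiment the Dhrs7b difference was -0.20. Without the vehicle array 1 call was made, without the array of PDGF alone 2, and without the PDGF with SU6656 array 16. Whether the changes of Klf4, Rhob, Mcl1 and Dhrs7b differ between the states is not shown, since their interactions had adjusted p-values of 0.13 to 0.44 in limma.

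Under PDGF, 2 probe sets (0.0126%) passed, both of them of Dnajb1 and both lower with UO126, where 1565 had an unadjusted p under 0.05. Here too the UO126 side is 1 array, whose spread is borrowed from the other conditions. Dnajb1 encodes an HSP40 co-chaperone that stimulates HSP70. Its signals under PDGF were 1364.8 with UO126 and 6138.8 without it at 1 probe set and 1982.7 against 7610.2 at the other. In quiescent cells they were 513.4 against 668.4 and 1105.5 against 1237.5. The fitted changes under PDGF were -2.08 and -1.78 (adjusted p = 0.0053 and 0.039 in limma), while the interactions of -1.65 and -1.48 did not pass (adjusted p = 0.055 and 0.29 in limma). Without the array of PDGF alone no call was left, and leaving out any 1 of the 4 arrays with SU6656 or LY294002 raised the number to 12 to 16.

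The upstream sequences of 6 genes that were lower with UO126 are shown as examples. Arf2 and Emp1 passed over both states together, Mcl1 was lower in both, Klf2 passed in quiescent cells and Dnajb1 under PDGF, and Fosb is a PDGF-induced gene with a lower signal under PDGF that did not pass. Each is the 250 bases before an annotated start in the RefSeq annotation of GRCm38.p6, 5′ to 3′ on the strand of the gene, and the most upstream start was taken for Arf2, Emp1 and Dnajb1, which have 2 each. The windows are Arf2 (chr11:103966475-103966724, plus strand), Emp1 (chr6:135362681-135362930, plus strand), Klf2 (chr8:72318812-72319061, plus strand), Mcl1 (chr3:95658471-95658720, plus strand), Dnajb1 (chr8:83607925-83608174, plus strand) and Fosb (chr7:19310046-19310295, minus strand). Capitals mark matches on either strand of 6 motifs that were searched: the CArG box of serum response factor, the ETS motif CCGGAA, the AP-1 motif TGANTCA, the CRE motif TGACGTCA, the heat shock motif GAANNTTC and the GC box GGGCGG.
Arf2: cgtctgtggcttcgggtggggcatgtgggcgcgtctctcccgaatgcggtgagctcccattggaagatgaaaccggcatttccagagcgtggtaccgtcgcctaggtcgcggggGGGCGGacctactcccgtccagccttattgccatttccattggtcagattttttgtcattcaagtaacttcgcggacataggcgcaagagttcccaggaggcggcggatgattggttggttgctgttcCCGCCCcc
Emp1: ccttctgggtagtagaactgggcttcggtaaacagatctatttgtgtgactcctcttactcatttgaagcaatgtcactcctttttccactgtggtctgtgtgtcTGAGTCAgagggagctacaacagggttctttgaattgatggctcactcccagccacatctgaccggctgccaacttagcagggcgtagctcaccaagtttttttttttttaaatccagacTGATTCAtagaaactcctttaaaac
Klf2: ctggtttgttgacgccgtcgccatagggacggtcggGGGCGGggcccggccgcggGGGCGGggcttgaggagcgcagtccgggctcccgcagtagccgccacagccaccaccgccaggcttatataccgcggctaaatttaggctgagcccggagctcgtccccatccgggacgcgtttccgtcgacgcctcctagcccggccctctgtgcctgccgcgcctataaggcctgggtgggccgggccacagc
Mcl1: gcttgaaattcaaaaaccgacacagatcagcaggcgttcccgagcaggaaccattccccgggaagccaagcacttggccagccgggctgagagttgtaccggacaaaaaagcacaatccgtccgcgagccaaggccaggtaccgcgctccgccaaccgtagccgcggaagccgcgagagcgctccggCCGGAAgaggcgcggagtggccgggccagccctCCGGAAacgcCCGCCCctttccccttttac
Dnajb1: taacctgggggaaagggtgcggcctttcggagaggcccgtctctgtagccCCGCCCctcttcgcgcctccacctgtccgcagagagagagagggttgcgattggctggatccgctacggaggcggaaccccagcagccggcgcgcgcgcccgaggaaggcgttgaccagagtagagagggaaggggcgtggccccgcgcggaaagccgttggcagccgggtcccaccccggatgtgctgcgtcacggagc
Fosb: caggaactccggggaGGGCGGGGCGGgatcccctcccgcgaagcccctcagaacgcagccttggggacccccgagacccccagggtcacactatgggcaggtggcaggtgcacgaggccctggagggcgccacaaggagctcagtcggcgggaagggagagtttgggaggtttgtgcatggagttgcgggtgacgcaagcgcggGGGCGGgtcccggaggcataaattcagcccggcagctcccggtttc
Emp1 held AP-1 letters 145 and 25 bases before its start, a motif present in 6.75% of all 32851 such windows. Mcl1 held the ETS letters at 63 and 30 bases, present in 12% of windows, and a GC box. The capitals in Arf2, Klf2, Dnajb1 and Fosb are GC boxes alone, which 32.7% of windows hold. The CArG box (1.47% of windows), CRE (1.55%) and heat shock letters (6.69%) were in none of the 6. The windows of Dusp6, Errfi1, Sgk1 and Folr2, also lower with UO126 under PDGF, were searched as well and held none of the motifs. Those of Klf4 and Rhob held GC boxes alone, and that of Miip the ETS letters. Only the most upstream start of each gene was searched. The further starts of Sgk1 (6 windows in all) and of Errfi1, Folr2 and Miip (2 each) were not. A match is a description of letters in this window and not a site.

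Genes that PDGF induces were looked at next, since they are what the study asked about. A list of 67 PDGF-induced genes was taken from arrays that hold no UO126, as those at least 2-fold higher with PDGF both in the SU6656 pair and in the LY294002 pair, each gene at its brightest probe set. With UO126 under PDGF their median log2 change was -0.28, and 46 of 67 (68.7%) were below 0, against a median of 0.01 and 48.2% below 0 over all 9218 genes. In quiescent cells the median was -0.04 and 37 (55.2%) were below 0, beside 46.7% of all genes. Under PDGF 11 of the 67 (16.4%) were at least 2-fold lower, beside 1.59% of all genes, and 3 were at least 2-fold higher, beside 1.53%. The median response to PDGF was 1.96 in the presence of UO126 and 2.10 in its absence, and 49 genes were still at least 2-fold up with UO126, against 54 without it. None of the 67 passed the test of the UO126 effect or of the interaction.

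The 11 genes were Dnajb1, Bcl2, Arc, Fosb, Maff, Errfi1, Hbegf, Ereg, Fosl1, Dusp6 and Sgk1. Among the transcription factors, Fosb, an AP-1 subunit, gave 738.6 with PDGF and UO126 and 2521 with PDGF alone, a log2 difference of -1.70, and Fosl1, the AP-1 subunit FRA-1, gave 780.9 against 1835.7. Maff, a small Maf factor, was dim at 55 against 262. Among the ligands of the EGF receptor, Hbegf gave 843.6 against 2071.6 and Ereg 502.1 against 1248.5. The log2 response to PDGF was 2.31 with UO126 and 3.75 without it for Fosb, and 2.10 with UO126 and 3.39 without it for Hbegf.

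Feedback inhibitors were also among the 11. Errfi1, an inhibitor of the EGF receptor, gave 3109.6 with PDGF and UO126 and 7900.8 with PDGF alone, and Dusp6, the cytoplasmic phosphatase of ERK, gave 593.4 against 1397.1. Arc, a cytoskeletal protein induced by the ERK pathway in neurons, gave 177.4 against 737.9, and Sgk1, a kinase downstream of PI3K, 3233 against 6923. Bcl2, the antiapoptotic protein, was dim at 15.2 against 148. The highest changes among the 67 were in Krt6a (1.80, a keratin, dim at 201.9 against 35.9), Ccr10 (1.47, a chemokine receptor, dim at 122.9 against 25.2), Ier3 (1.07, an early-response survival gene, 3199.4 against 1442.7) and Zfp36l1 (0.71, an RNA-binding protein of mRNA decay, 4237 against 2515). Krt6a and Ccr10 met the rule in the SU6656 and LY294002 pairs, but their response to PDGF without inhibitor was -1.44 and -0.20.

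The MEK experiment, on other arrays, measured 53 of the 67 genes. Their median change with UO126 under PDGF there was -0.32, against 0.03 over the 5537 genes measured in both tables; 41 of 53 (77.4%) were below 0 beside 46.0% of all, and 11 (20.8%) were at least 2-fold lower beside 1.57% of all. Over the 5537 genes, 49 were at least 2-fold lower with UO126 under PDGF in the Src experiment and 87 in the MEK experiment, and 10 were in both, which is 20.4% and 11.5% of the lists. Named from this count after their values were seen, they were Dnajb1, Dusp6, Ereg, Errfi1, Folr2, Fosb, Fosl1, Hbegf, Miip and Sgk1. Of the 49, 38 had the same sign in the MEK experiment. In quiescent cells the lists held 65 and 63 genes and shared Klf2 alone. That is 1.54% of the Src list, beside 1.14% of all genes in the MEK list. Over the 5537 genes, Pearson's r between the experiments was 0.036 in quiescent cells and 0.107 under PDGF. Of genes at least 2-fold higher, 2.11% of genes under PDGF and 2.09% in quiescent cells in the MEK experiment, 2 were shared under PDGF (Dpp6 and Enkd1) and 1 in quiescent cells (Slc35g3). In the MEK experiment the differences under PDGF were -1.98 for Fosb, -1.75 for Errfi1, -1.76 for Dusp6 and -1.10 for Dnajb1, and for genes called over both states together they were -0.60 for Arf2, -0.23 for Emp1 and 0.93 for H1f2.

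**Figure D3:**
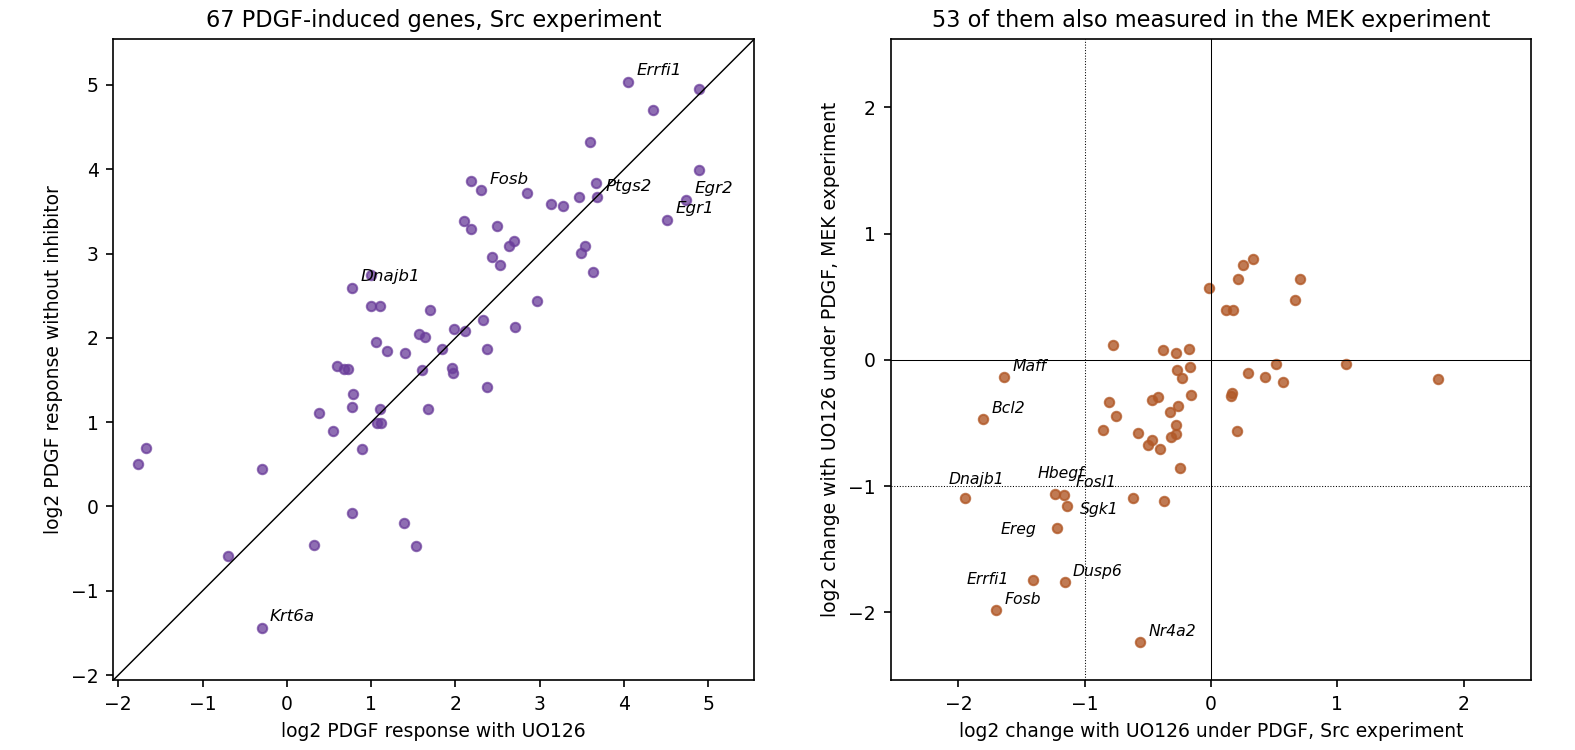
Left, log2 response to PDGF with UO126 (x axis) and without inhibitor (y axis) for 67 PDGF-induced genes, with the line of equal response; right, log2 change with UO126 under PDGF in the Src experiment (x axis) and in the MEK experiment (y axis) for the 53 measured in both, with dotted lines at 2-fold lower. Dnajb1 and Fosb lie above the line on the left, and Fosb, Errfi1 and Dusp6 are at least 2-fold lower in both experiments on the right.

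Of the 13 genes lowered at least 2-fold by PDGF in the SU6656 and LY294002 pairs, the median change with UO126 was 0.20 under PDGF and -0.35 in quiescent cells. Rgs2 (1.58) and Txnip (1.06) had the highest changes under PDGF. Txnip, an arrestin-like inhibitor of glucose uptake, gave 575.2 with PDGF and UO126 against 255.6 with PDGF alone. Kcna7, a potassium channel (-2.36), and Krba1 (-1.43) were the lowest, with signals of 21.3 against 271.1 and 34.8 against 164.7. With PDGF alone 3 of the 13 were at least 2-fold below vehicle, and Kcna7 and Krba1 were above it, both by 0.70. None of the 13 passed the test of the UO126 effect.

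The lists of genes around the pathway were described by counts and by the median of the UO126 effect, which is the mean of the plain differences in both states, each gene at its brightest probe set. Over all 9218 genes the median UO126 effect was 0.02, and at least 2-fold lower were 1.71% of genes in quiescent cells and 1.59% under PDGF. No member of any list passed the test of the UO126 effect. The 22 genes that carry the signal, receptors and adaptors to ERK and its ETS partners, had a median of -0.05 and no 2-fold change. Their largest effects were in Sos2, a Ras exchange factor (-0.47), Elk4 (-0.40) and Elk3 (0.37), both ETS factors, and Braf (0.33), a Raf kinase.

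The 11 feedback inhibitors had a median of -0.37, with 2 at least 2-fold lower under PDGF and 1 in quiescent cells. Dusp6 had plain differences of -0.98 in quiescent cells and -1.16 under PDGF, its quiescent signals being 17.3 with UO126 and 63.5 with vehicle, near the offset of 36.3 that was added before the logarithm. Spry2, a Sprouty inhibitor of receptor signalling, had -1.05 and -0.53 (159.8 against 355, and 1419 against 2074.1). Spred1, a Sprouty-related inhibitor of Ras and Raf, had -0.85 and -0.31 (133.8 against 256.9, and 351.6 against 454.6). The 13 ERK and ETS targets had a median of -0.25, and the medians of their plain differences were 0.04 in quiescent cells and -0.47 under PDGF.

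The 36 early-response factors had a median of -0.10, with 3 at least 2-fold lower in each state, and 1 in quiescent cells and 2 under PDGF at least 2-fold higher. Klf2 and Klf4 were the members that passed the test in quiescent cells. Egr2, a zinc finger factor, had -1.42 in quiescent cells and -0.32 under PDGF, with signals of 9.4 against 81.5 and 1140.4 against 1421.6. Egr1, the related factor that is a textbook target of ERK and serum response factor, had -0.90 and 0.21, with 266.5 against 522.7 and 6928 against 5826. In the MEK experiment the Egr1 difference under PDGF was -0.56. Egr1 was chosen after its values were seen. Of 9 secreted signals the median effect was -0.26, and the medians of the plain differences were -0.06 in quiescent cells and -0.08 under PDGF. Inhba, an activin subunit, had -1.86 and 0.38 (63.7 against 300.1, and 558.2 against 421.7).

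The remaining pathway lists had medians between -0.15 and 0.16. The 10 inflammatory genes had -0.15, with Ptgs2, the inducible cyclooxygenase, at 0.51 and 0.52 (360.8 against 246.6, and 5147.7 against 3501.4). The 19 targets of serum response factor and its actin-regulated partners had -0.13, and the 9 matrix and protease genes 0.12. The 15 FOXO and quiescence genes had 0.16, the 6 genes of the aryl hydrocarbon receptor 0.11, and the 10 antioxidant genes 0.13. In the last, Hmox1, heme oxygenase, had 1.47 in quiescent cells and -0.16 under PDGF (1856.2 against 669.4, and 1789.4 against 2016.5). Sterol synthesis (14 genes) had -0.06, chaperone and stress genes (15) 0.01, cell cycle genes (13) -0.02, ribosome biogenesis (11) -0.09 and the housekeeping genes (7) 0.00. The 9 fibroblast markers had -0.05, and the 4 marker lists of other cell types, with 2 or 3 measured genes each, had -0.42 to 0.07.

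**Figure D4:**
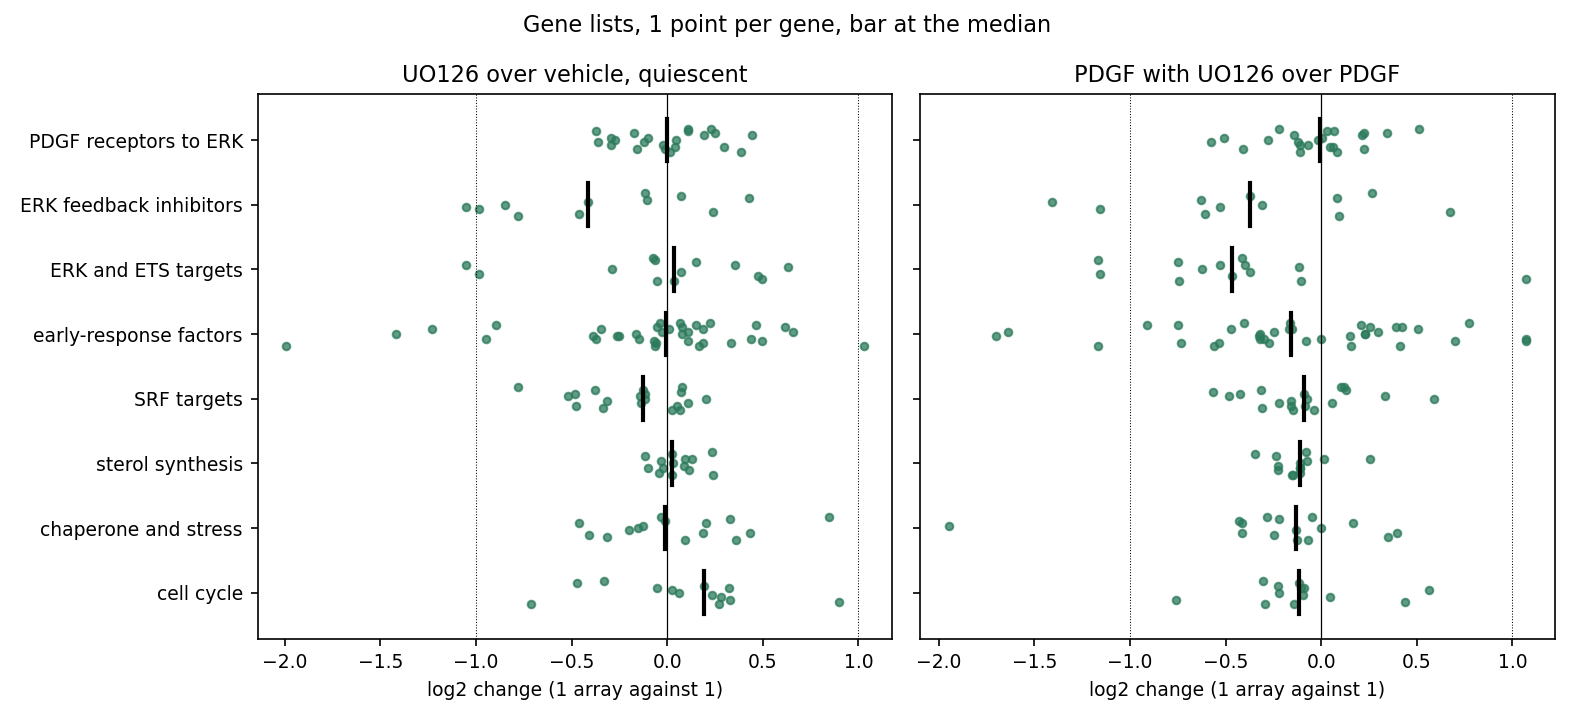
Log2 change with UO126 in quiescent cells (left) and under PDGF (right) for 8 gene lists, 1 point per gene at its brightest probe set, 1 array against 1, with a bar at the median and dotted lines at 2-fold. The medians of the ERK feedback inhibitors are -0.41 and -0.37, while those of the genes from the PDGF receptors to ERK are both close to 0.

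Against the other inhibitors, 8 sterol synthesis genes were higher with UO126, and Arf2, Emp1, Mcl1, Rhob, Oga and Tagln were lower. UO126 minus the mean of SU6656 and LY294002 passed for 95 probe sets (0.6%), 55 higher (0.347%) and 40 lower (0.253%), and 1993 had an unadjusted p under 0.05. Of the 55, 33 had a UO126 effect of less than 0.25 in size against the arrays without inhibitor, and their medians were 0.16 with UO126, -0.31 with SU6656 and -0.59 with LY294002. Of the 40, 34 had an unadjusted p under 0.05 for the UO126 effect itself, and 4 passed it. The effects of the 3 inhibitors were taken against the same 2 arrays, so they are given side by side. Genes named for the size of this contrast, such as Adamts1, F3 and Rhob, were chosen after their values were seen.

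The 8 sterol genes that passed, of 14 in the list, were Hmgcs1, Fdft1, Msmo1, Sqle, Idi1, Stard4, Sc5d and Cyp51. Hmgcs1, the synthase that makes HMG-CoA, had -0.06 with UO126, -1.57 with SU6656 and -0.66 with LY294002, and the contrast was 1.06 (adjusted p = 0.013 in limma). Fdft1, squalene synthase, had 0.08, -1.42 and -0.54, and the contrast was 1.06 (adjusted p = 0.0073 in limma). Adamts1, a secreted metalloprotease, was higher than with the other inhibitors by 1.47 (adjusted p = 0.0026 in limma), with 2081.4 and 2301.7 on the UO126 arrays and 1416 and 1493.9 on those without inhibitor. F3, tissue factor, was higher by 1.16 (adjusted p = 0.031 in limma), with 0.18 against the arrays without inhibitor. Among chaperone and stress genes Trib3, Atf4 and Herpud1 were higher, by 0.83, 0.42 and 0.64, and of the FOXO list Ddit4 and Gas1, by 0.91 and 0.52.

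The genes lower with UO126 than with the other inhibitors included Arf2 and Emp1, and also Mcl1, Rhob, Oga and Tagln. Rhob had -0.55 with UO126, 0.15 with SU6656 and 0.49 with LY294002, and the contrast was -0.87 (adjusted p = 0.011 in limma). Mcl1 had -0.71, -0.16 and 0.12 at its probe set with the smallest p for the UO126 effect, with a contrast of -0.69 (adjusted p = 0.013 in limma). Oga had -0.77, -0.23 and 0.23 at its probe set with the smallest p for the UO126 effect. The contrast there was -0.77 (adjusted p = 0.011 in limma). Tagln, the smooth muscle actin-binding protein transgelin and the SRF target that passed, had a contrast of -0.56 (adjusted p = 0.028 in limma). The number of calls fell to 7 to 54 when any 1 of the 8 arrays was left out, with 7 without the quiescent UO126 array and 14 without the quiescent LY294002 array.

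**Figure D5:**
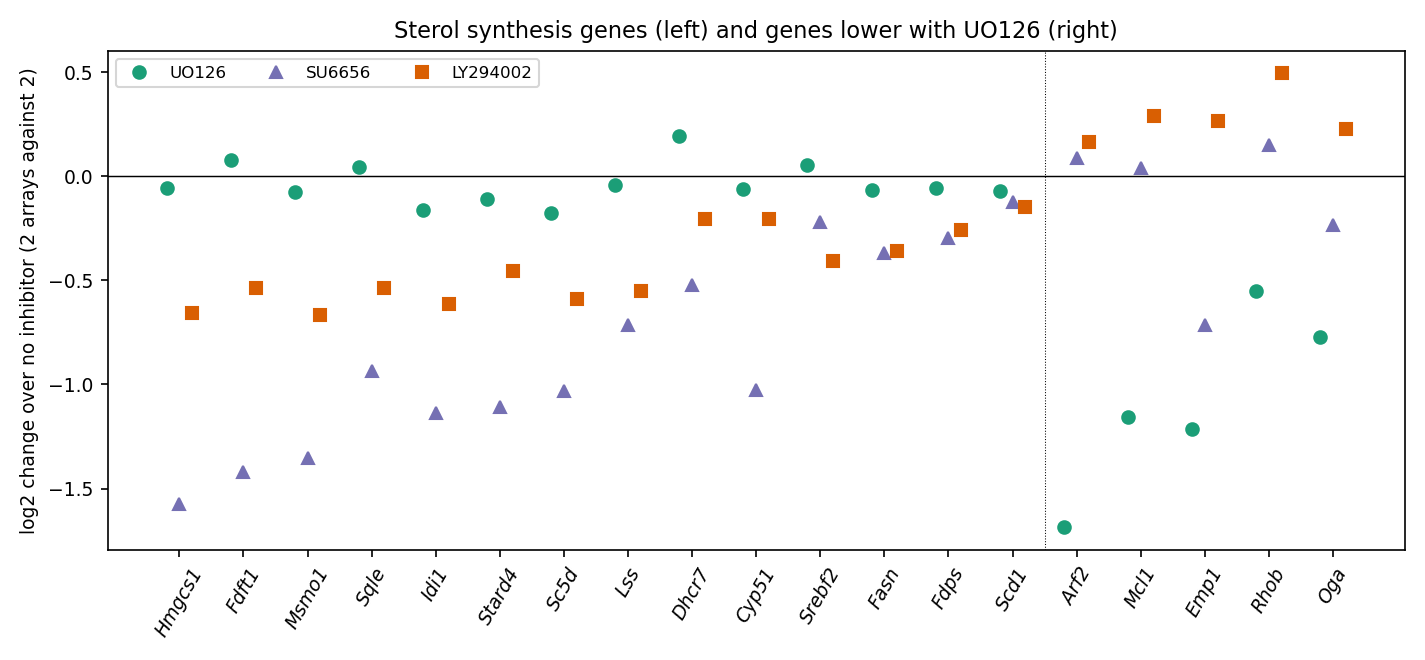
Log2 change with UO126, SU6656 and LY294002 over the arrays without inhibitor (y axis, 2 arrays against 2) for 14 sterol synthesis genes (left of the dotted line) and 5 genes lower with UO126 (right; Mcl1 at its probe set with the largest contrast). The UO126 points of the sterol genes lie near 0 while Hmgcs1 is at -1.57 with SU6656, and UO126 gives the lowest point for each of the 5 genes on the right.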

How the data were processed

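The authors deposited 1 linear intensity for each probe set on each array. Their mean after trimming the extremes was 500.2 on all 8 arrays of the Src experiment, so the authors had scaled the intensity of each array to a common trimmed mean. The program that computed the signals is not given in the sources used here, nor is a genome build. Of 22690 probe sets, 64 controls were left out. Names came from the platform annotation, with 20364 symbols matched to RefSeq, and 20393 probe sets had 1 gene, 691 had several and 1606 were unlisted. Symbols and upstream windows are those of GRCm38.p6.

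Values were quantile normalised within the table and transformed as log2 of the value plus its 20th percentile (36.3 signal units), which understates the change of a dim probe set. Leaving out the lowest 30% by mean kept 15838 probe sets and 9218 named genes. The 8 arrays were modelled in limma 3.58.1 under R 4.3.3 (lmFit, eBayes with a trend), with PDGF and inhibitor as additive terms, or with the interaction of UO126 with PDGF added, and Benjamini-Hochberg adjustment over all 15838. On simulated data the UO126 fit recovered 98 of 100 probe sets changed by 1 on the log2 scale, and the interaction fit 43 of 100, with 13 and 7 false calls; of those changed by 2 both recovered 100 of 100. Each recovery is a single figure over the changed probe sets. Every simulated probe set had the same spread, from the median residual variance, and no response to PDGF, unlike the arrays. The recoveries therefore do not give the power in the arrays. There, effects of 1.01 for Angptl4 and 1.14 for Rgs2 did not pass (adjusted p = 0.11 for each in limma). In the arrays the SE of the UO126 effect was 0.064 for Neat1 and 0.69 for Krt6a. Recovery at the spread of a given probe set was not tested. The 9-array table, normalised alone with an offset of 21.2, gave the differences of the MEK experiment, as plain values with no test.

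The arrays were chosen and the gene lists written with earlier results of these data known. Genes named from a fit are those past the threshold, at the probe set with the largest change, with at most 12 rises and 12 falls. The interaction rule gives 6 in each direction. Of these, Mepce (1.99), Zwint (-0.80), Msx3 (-2.72) and Zdhhc6 (-3.23) did not pass the threshold and are given here alone. A list names members past the threshold and up to 4 others by the size of their effect. The PDGF-induced genes name the 8 lowest and 4 highest. Other genes are said to be chosen after their values were seen. Alternatives changed the normalization, the offset, the filter, the variance prior, the probe sets and the arrays in the fit. Precision is limited by how few arrays there are.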

Additional observations from a re-analysis of the deposited data

Results flagged for a closer look

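For 3 probe sets the change with UO126 under PDGF differed from that in quiescent cells by the test of the difference itself, limma's interaction term. The change under PDGF minus that in quiescent cells was 2.8415 at 1 of 5 Malat1 probe sets, 2.4229 for Klf2 and 2.3536 for Rexo1, all positive and with adjusted p-values of 0.00019, 0.014 and 0.035 in limma. For Klf2 the same difference of plain changes had the same sign in the MEK experiment. The Klf2 changes there were 0.19 under PDGF and -2.90 in quiescent cells, with a quiescent UO126 signal of 16.6, below the offset of 21.2. For Rexo1 the difference had the opposite sign there, with changes of -0.52 under PDGF and -0.19 in quiescent cells. Malat1 had no value from the MEK experiment. Each state holds 1 UO126 array, which the fit meets exactly, so its spread is taken from the other arrays. No group here has 4 or more arrays, so no array was tested as standing apart from its group.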

How the results depend on the processing

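The 55 named values kept their direction under all alternatives of their fits. They were picked by size or p from these same data, so a kept direction is no independent support. For the interaction and the change in each state no UO126 array was left out, since each state holds 1. Without the filter on dim probe sets the calls were 0 for the UO126 effect, 1 for the interaction, 22 against SU6656 and LY294002, 1 in quiescent cells and 0 under PDGF. Without a variance trend each of these 5 counts was 0, with smallest adjusted p-values of 0.226 to 0.59 in limma and 1171 to 1676 probe sets at an unadjusted p under 0.05. A fit of the 4 arrays without SU6656 or LY294002 alone, with 1 residual degree of freedom, gave 21 calls for the UO126 effect, and a fit of the 8 arrays with the interaction as a term gave 14. Without probe sets of the _x_at and _s_at kind the interaction gave 1 call. That setting leaves out the called Malat1 and Rexo1 probe sets, both of the _s_at kind, so it does not test their calls. With 1 array left out at a time the counts were 0 to 8 for the UO126 effect, 2 to 9 for the interaction, 7 to 54 against the other inhibitors, 1 to 16 in quiescent cells and 0 to 16 under PDGF; where a left-out array leaves 1 array on a side, it is assumed to vary like the rest. The counts in each state and those of PDGF-induced genes were recomputed by choice after the data were seen. The median of PDGF-induced genes under PDGF stayed between -0.32 and -0.20, and 9 to 14 of them were at least 2-fold lower. No paired analysis was possible because each condition is 1 array and the labels give no replicate numbers. Changes within 1 pair of arrays have no replicate, and dim probe sets limit what a 2-fold difference shows.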

Other observations

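Outside the comparisons above, Lpl and Angptl4 had higher signals with UO126 in both states and did not pass the test. Lpl, lipoprotein lipase, gave 1139 with UO126 against 664.9 with vehicle, and under PDGF 660.6 against 332.4, a log2 effect of 0.85 (adjusted p = 0.096 in limma). Angptl4, a secreted inhibitor of lipoprotein lipase, gave 874 against 375.9, and under PDGF 465.5 against 248.1, an effect of 1.01 (adjusted p = 0.11 in limma). In the MEK experiment the plain differences were 0.53 and 0.22 for Lpl and -0.69 and -0.06 for Angptl4, in quiescent cells and under PDGF. Irs1, an adaptor of the insulin receptor, gave 744.3 against 916.3 in quiescent cells and 1518 against 678.5 under PDGF (interaction 1.34, adjusted p = 0.32 in limma). Tgif1, a homeodomain repressor, gave 1248 against 1154 in quiescent cells and 1442 against 2659 under PDGF (interaction -0.99, adjusted p = 0.42 in limma), and its differences in the MEK experiment were 0.87 and -0.78. Lpl and Angptl4 were chosen after their values were seen.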
